A study of Homo sapiens with 4 samples.

Results

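The genes described here are 278 antisense RNA genes of K562 cells, each named in GENCODE 29 for a gene on the other strand by the ending AS and 1 digit (such as OIP5-AS1, named for OIP5). The human count table held 1187 genes with such a name among its 60279 gene identifiers, and the 278 were chosen by their raw reads, at least 100 summed over the 4 libraries, with a median of 242.5 and a highest sum of 6942. Just inside this limit stood DCTN1-AS1 with 103 reads and EDRF1-AS1 and DNAJC27-AS1 with 104 each. Just outside stood CNOT10-AS1, SEC62-AS1 and BHLHE40-AS1 with 99 each. Since reads were the choice, levels are given below as a description, and only the change with label time was tested. GENCODE types 220 of them as antisense, 30 as processed transcripts and 21 as lincRNA, and 5 are typed as pseudogenes, 1 as TEC and 1 (NCBP2-AS2) as protein coding.

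Antisense RNA is made from the strand opposite to that of another gene. One kind starts close to the start of a coding gene and runs away from it, since many promoters fire in both directions, and these upstream RNAs are often ended early and destroyed by the nuclear exosome. Another kind runs through part of the coding gene, from its far end, from inside it or across its start. A few long-lived members are well known, such as OIP5-AS1 (Cyrano), a noncoding RNA conserved among vertebrates.

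K562 is an established line from chronic myeloid leukaemia with erythroid features that carries the BCR-ABL fusion. Untreated cells, all of this 1 line, took up 1 mM 4-thiouridine for 5 min (2 libraries) or 15 min (2 libraries), and RNA made in that time was pulled down through its thiol groups (TT-seq). Each extract of human RNA received 15 μg of fly S2 RNA per 150 μg before the pull-down, and all levels below are reads per 100000 fly reads (called fly-scaled). No source used here states whether replicate libraries stem from separate cultures, so p-values measure library spread alone, and that may be technical.

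The libraries held 4339981 to 5051370 human reads each, beside 308978 to 897018 from fly. All 9 K562 and erythroid markers looked for were read, at 357 to 5955 summed reads. Of the 15 markers of T cells, B cells, monocytes, fibroblasts and epithelium, 2 were at 0 and the highest summed count was 848. In bulk RNA, fewer cells of a type and less RNA per cell cannot be told apart.

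How the reads were assigned bears on every antisense gene. Of 688 annotated genes whose exons lie wholly inside exons of opposite-strand genes, 30 (4.36%) had any read, and the 17 of these with an antisense name had none. Where exons lay wholly inside exons of same-strand genes, 42 of 752 (5.59%) had a read. By contrast, of 7530 genes lying wholly inside opposite-strand gene spans but in no other gene's exons, 4289 (57.0%) had reads, and of 6179 such genes inside same-strand spans 3402 (55.1%) had reads. Reads in shared exonic bases were thus mostly given to neither gene, whichever the strand, and introns did not block counting. RNA from the intron of a coding gene therefore cannot be told apart here from RNA of an antisense exon that lies in that intron. Among the 278 genes, 93 lay wholly inside the span of an opposite-strand gene, and 208 shared at least some exonic bases with exons of another gene. The share of each gene's exonic bases inside an opposite-strand span is given below beside the results, and its part in them was not tested.

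A coding partner of the name before the hyphen was found for 270 of the 278. The other 8 were GAS5-AS1 and ZNF252P-AS1, whose partners are noncoding, HOXB-AS1 to HOXB-AS4, HOXC-AS2 and RPARP-AS1. The 270 pairs had 265 distinct partners, since 5 coding genes carry 2 antisense genes each (DLGAP1 carries DLGAP1-AS1 and DLGAP1-AS2). All pairs lay on opposite strands. In 23 pairs the genes were divergent, which means that their spans shared no base and their starts faced away from each other at most 5000 bases apart (median distance 101 bases). In 247 pairs the spans overlapped. Of these, 79 crossed at their starts (head to head), 72 crossed at their ends (tail to tail), 81 had the antisense gene nested in the partner and 15 had the antisense gene holding the whole partner.

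The divergent class turns on the short stretch between the 2 annotated starts. This stretch was not tested for promoter use. It is shown for 5 pairs with starts 36 to 143 bases apart: ZNF674-AS1, RAB30-AS1 and SCAMP1-AS1, which had high antisense levels for their class, and UBA6-AS1 and UBAC2-AS1, chosen after their change against the partner was seen. Each runs 5′ to 3′ on the strand of the coding partner, from the base after the antisense start to the base before the partner's start. Capitals mark matches on either strand to 1 of 4 motifs. These were the GC box, GGGCGG, then the CCAAT box, which is named by its letters, then the TATA box as TATAAA, and last an ETS type motif, CCGGAAG. No motif shares bases with another kind. Sequences are from RefSeq (GRCh38.p14) and starts from GENCODE 29 on the same human build.
ZNF674-AS1 and ZNF674, chrX:46545458-46545492, minus strand: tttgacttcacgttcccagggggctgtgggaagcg
RAB30-AS1 and RAB30, chr11:83071924-83072065, minus strand: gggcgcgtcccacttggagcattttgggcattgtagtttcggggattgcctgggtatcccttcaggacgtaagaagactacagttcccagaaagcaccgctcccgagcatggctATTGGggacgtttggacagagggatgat
SCAMP1-AS1 and SCAMP1, chr5:78360508-78360582, plus strand: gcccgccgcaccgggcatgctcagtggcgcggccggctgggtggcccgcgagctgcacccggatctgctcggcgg
UBA6-AS1 and UBA6, chr4:67701180-67701279, minus strand: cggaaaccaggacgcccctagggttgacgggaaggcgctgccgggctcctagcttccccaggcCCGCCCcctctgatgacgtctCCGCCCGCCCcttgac
UBAC2-AS1 and UBAC2, chr13:99200711-99200773, plus strand: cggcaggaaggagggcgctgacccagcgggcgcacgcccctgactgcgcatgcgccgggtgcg

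These stretches differed in make-up. The stretch of UBA6 held 3 GC boxes (2 of them sharing bases), that of RAB30 held 1 CCAAT box read on the other strand, and those of SCAMP1, UBAC2 and ZNF674 held none of the 4 motifs. GC content was 80% at SCAMP1, 77.8% at UBAC2, 71% at UBA6, 60% at ZNF674 and 54.9% at RAB30. In the RefSeq table, 11 of the 23 divergent antisense genes could be matched by symbol. In the 250 bases upstream of their starts 8 of 11 (72.7%) held a GC box, against 63 of 166 (38.0%) of the overlapping antisense genes matched and 42.3% of all 27305 promoters. A CCAAT box was present in 1 of 11 (9.09%), against 38.0% and 33.0%. None of the 11 held TATAAA, which 11.1% of all promoters hold. Median CpG counts in these 250 bases were 26, 12 and 11. The 20 matched partners of divergent genes stood near the divergent antisense genes, with a GC box in 14 (70%) and a median CpG count of 23.5. Of these partners, 4 (20%) held a CCAAT box and 2 (10%) held TATAAA. High GC box and CpG counts were thus not particular to the antisense starts. A match describes letters and is not a bound site.

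Labelled reads counted to the antisense genes rose between 5 and 15 min in every member. For the 93 that lie wholly inside an opposite-strand span, antisense RNA cannot be told apart from intron RNA of that gene. On the fly scale 278 of 278 rose, with folds from 1.81 (OPA1-AS1) to 7.72, and in all 278 both 15 min libraries lay above both 5 min libraries. This is read against a background in which 98.4% of the 17322 tested genes rose and 99.0% had libraries separated in this way. Their median fold was 3.85 (quartiles 3.26 and 4.58), while it was 3.01 for their partners (255 tested), 2.93 for the 10306 coding genes with at least 100 reads, and 3.20 for all tested genes. Other long noncoding genes with at least 100 reads had a median of 3.82 (1515 genes), close to that of the antisense genes. Differences between these medians were not tested. These tests were edgeR quasi-likelihood tests on fly totals, and an error in the fly scale would move all genes together. OPA1-AS1, with 20 to 43 reads per library, kept no call when replicate 1 was dropped at 5 min (adjusted p = 0.104) or at 15 min (0.217), or with DESeq2 (0.097).

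**Figure D1:**
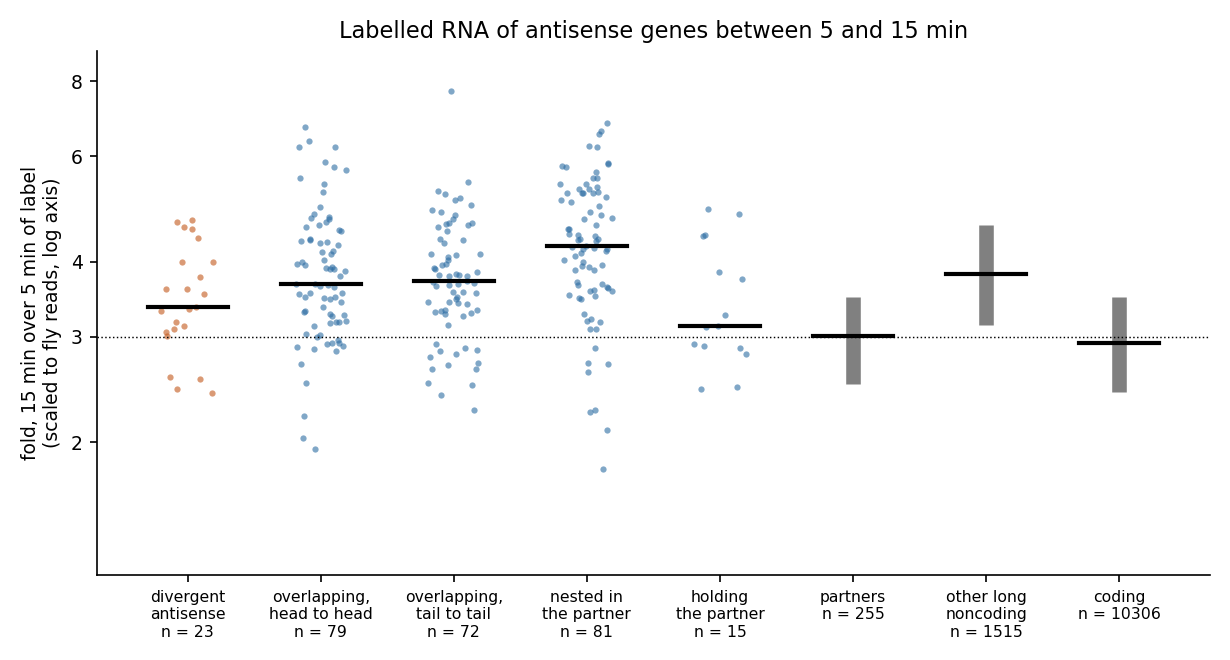
Fold of labelled RNA, 15 min over 5 min, scaled to fly reads, on a log axis. Each point is 1 antisense gene, black bars are medians, grey bars run from the lower to the upper quartile of partners, of other long noncoding genes and of coding genes with at least 100 reads, and the dotted line is the 3-fold ratio of the label times. The nested class has the highest median (4.25) and the class holding its partner the lowest (3.13).

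By position, median folds were 4.25 for the nested genes, 3.71 for tail to tail, 3.68 for head to head overlaps, 3.36 for divergent genes and 3.13 for the 15 that hold their partner. The median percent of exonic bases inside an opposite-strand span was 100, 73.8, 24.9, 0 and 29.7 in these classes, taken in the same order. Antisense genes with at least 50% of exonic bases inside an opposite-strand span had a median of 4.09 (170 genes) and those with less had 3.51 (108 genes). The same split in other long noncoding genes with at least 100 reads gave 4.07 (663 genes) and 3.70 (852 genes). No test between classes was run, since genes of a class share the same 4 libraries.

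The 6 most read members differed in their fold between 5 and 15 min. Over all tested genes the quartiles of this fold were 2.57 and 4.01. LRRC75A-AS1, a snoRNA host gene (chromosome 17, 16438822 to 16478678) had fly-scaled levels of 176 and 194 reads after 5 min and 593 and 618 after 15 min, a 3.27-fold rise. THUMPD3-AS1 on chromosome 3 went from 139 and 171 to 676 and 697 (4.43-fold). OIP5-AS1 on chromosome 15 went from 104 and 130 to 335 and 345 (2.92-fold). In each of these the label times stood far apart, although the folds of the 3 genes differed. DLGAP1-AS2 (chromosome 18) was also abundant but rose the least of the 6, from 111 and 137 to 266 and 255 (2.10-fold). EPB41L4A-AS1, which also hosts a snoRNA and lies wholly within EPB41L4A, rose from 62.8 and 80.6 to 270 and 254, and PSMA3-AS1 from 72.5 and 87.3 to 267 and 260.

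Among members with at least 200 summed reads, steep rises were those of GABRG3-AS1 (6.25-fold), HMGN3-AS1 (6.23), LCMT1-AS2 (5.75) and SEMA3F-AS1 (5.69). GABRG3-AS1 went from 3.90 and 4.23 fly-scaled reads to 26.4 and 24.6, and HMGN3-AS1 from 3.46 and 4.10 to 23.8 and 23.3. Except for HMGN3-AS1 (30.1%), these genes had 94.0% to 100% of their exonic bases inside an opposite-strand span. The shallowest rises were those of GAS5-AS1 (1.88-fold), NNT-AS1 (1.95), DLGAP1-AS2 (2.10), HOXB-AS1 (2.40) and DHRS4-AS1 (2.45). GAS5-AS1, which starts beside the snoRNA host gene GAS5, went from 91.9 and 99.3 to 189 and 170. NNT-AS1, beside the gene of a mitochondrial transhydrogenase, went from 10.6 and 12.2 to 22.0 and 22.3. Of these 5 genes, DLGAP1-AS2 alone lay wholly inside an opposite-strand gene.

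The second comparison set each gene against the human reads of its own library (TMM factors), so that it asks which antisense RNAs took a larger or smaller part of the labelled RNA after 15 min. In this measure 97 of 278 antisense genes gained share and 7 lost it, with a median log2 change of 0.30. Of all tested genes, 16.8% gained and 21.3% lost (median 0.03). Among coding genes with at least 100 reads 14.7% gained and 33.5% lost. Of the 1515 other long noncoding genes with at least 100 reads 31.3% gained and 5.02% lost, next to 34.9% and 2.52% of the antisense genes. Gains were thus nearly as frequent in noncoding genes of other names. With DESeq2 29 of 256 antisense genes gained and 4 lost, against 7.31% and 18.8% of all genes. When replicate 2 was dropped at 5 min, or replicate 1 at 15 min, 57 gained and 5 lost. Of all genes 10.7% and 10.9% then gained, and 17.2% and 16.7% lost. Scaling to total counts moved the median of all genes to 0.13 and gave 136 gains and 5 losses, with 4253 gains and 2792 losses over all genes.

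Gains were found in 37 of 81 nested genes, 27 of 79 head to head overlaps, 22 of 72 tail to tail overlaps, 4 of 15 that hold the partner and 5 of 23 divergent genes. Split by exons, 67 of 170 genes (39.4%) with at least 50% of exonic bases inside an opposite-strand span gained, and 30 of 108 others (27.8%). The same split in other long noncoding genes with at least 100 reads gave nearly the same, 36.3% and 27.3%. THUMPD3-AS1 gained 0.50 ± 0.0612 on the log2 scale (SE, adjusted p = 8.44e-15), MCM3AP-AS1 0.45 ± 0.0796 (2.02e-07) and RPARP-AS1 0.53 (3.04e-07). The naming rule given with the processing did not pick RPARP-AS1, nor HOXC-AS2 and HOXB-AS2 to HOXB-AS4, which follow. HOXC-AS2, the antisense RNA of a developmental homeobox cluster, gained 1.00 (adjusted p = 0.00283) with only 12 to 43 reads per library, and did not pass without replicate 2 at 5 min (0.255). The 4 HOXB antisense genes did not pass with all libraries, at -0.38 (HOXB-AS1), 0.45 (HOXB-AS2), 0.26 (HOXB-AS3) and 0.50 (HOXB-AS4). Each of these but HOXB-AS3 passed in at least 1 fit without 1 library, the lowest adjusted p being 0.00228 for HOXB-AS4 without replicate 1 at 5 min, where it had 36 reads against 13 in replicate 2. OIP5-AS1 (-0.10, adjusted p = 0.211), GATA2-AS1 (-0.08, 0.673) and TMPO-AS1 (-0.13, 0.532) also did not pass.

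The 7 that lost share were GAS5-AS1 (log2 change -0.74 ± 0.0716 SE, adjusted p = 1.31e-23), DLGAP1-AS2 (-0.58 ± 0.0662, 9.41e-17), NNT-AS1 (-0.69, 0.000355), GABPB1-AS1 (-0.32, 4.98e-05), OPA1-AS1 (-0.79, 0.0162), PAXIP1-AS1 (-0.29, 0.0174) and FGD5-AS1 (-0.20, 0.0282). They were named after their values were seen where the naming rule did not pick them. None of the last 3 passed with DESeq2 (adjusted p = 0.185, 0.179 and 0.272). With total counts in place of TMM, PAXIP1-AS1 (-0.18, 0.153) and FGD5-AS1 (-0.097, 0.334) also did not pass. OPA1-AS1 missed the threshold without replicate 2 of either group (adjusted p = 0.265 for 5 min and 0.162 for 15 min). PAXIP1-AS1 (0.104 and 0.246) and FGD5-AS1 (0.871 and 0.288) missed it when replicate 2 was dropped at 5 min or replicate 1 at 15 min.

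The third comparison asked whether an antisense gene and its coding partner kept the same ratio within a library, which needs no spike-in. It was fitted with edgeR on 1926 opposite-strand pairs of a noncoding (or member) gene with a coding gene, 259 of them pairs of members, and the tested term is the log2 change of the antisense gene minus that of its partner. In 86 of 259 pairs the antisense gene gained on its partner and in 7 it lost. Of all 1926 pairs, 28.1% gained and 1.77% lost, so the members' gains (33.2%) and losses stood near the background of such pairs. The 11 pairs left out had partners with at most 28 summed reads. Fewer member pairs were called without replicate 1 at 15 min or without replicate 2 at 5 min. The share over all pairs was not computed for these fits. Their median terms were 0.19 and 0.14 in divergent pairs and 0.33 and 0.37 in overlapping pairs.

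**Figure D2:**
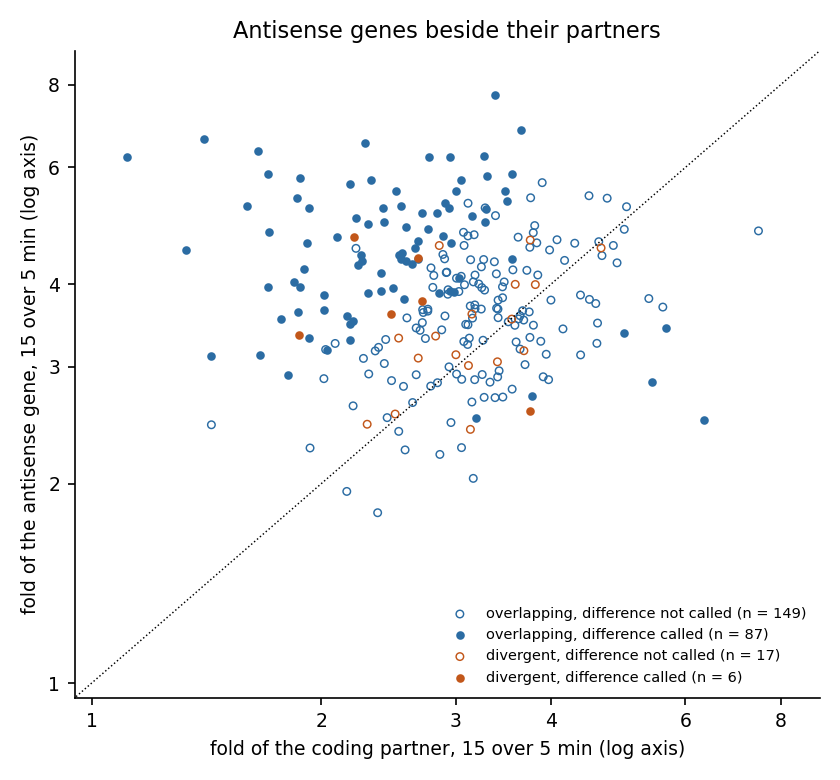
Fold of each antisense gene against that of its coding partner, 15 min over 5 min of label, scaled to fly reads, both axes logarithmic. Filled points are pairs whose difference was called, open points the others, and the dotted line marks equal folds. Overlapping pairs lie above the line in 179 of 236 cases and divergent pairs in 16 of 23.

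The median term was 0.15 in the 23 divergent pairs (5 gained, 1 lost) and 0.37 in the 236 overlapping pairs (81 gained, 6 lost). The same classes without members had medians of 0.29 (356 divergent pairs) and 0.43 (1311 overlapping pairs), and the difference between classes was not tested. Within the overlaps, medians were 0.61 for nested genes (38 of 77 gained), 0.36 for head to head (22 of 77), 0.19 for tail to tail (18 of 68) and -0.11 for genes that hold their partner (3 of 14). Overlapping pairs with at least 50% of antisense exonic bases inside an opposite-strand span had a median of 0.43 (155 pairs) and the others 0.27 (81 pairs). Across pairs, the log2 folds of antisense gene and partner were nearly unrelated, with Pearson's r of -0.02 over 236 overlapping pairs and 0.17 over 23 divergent pairs. These are descriptions across genes that share the same 4 libraries.

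**Figure D3:**
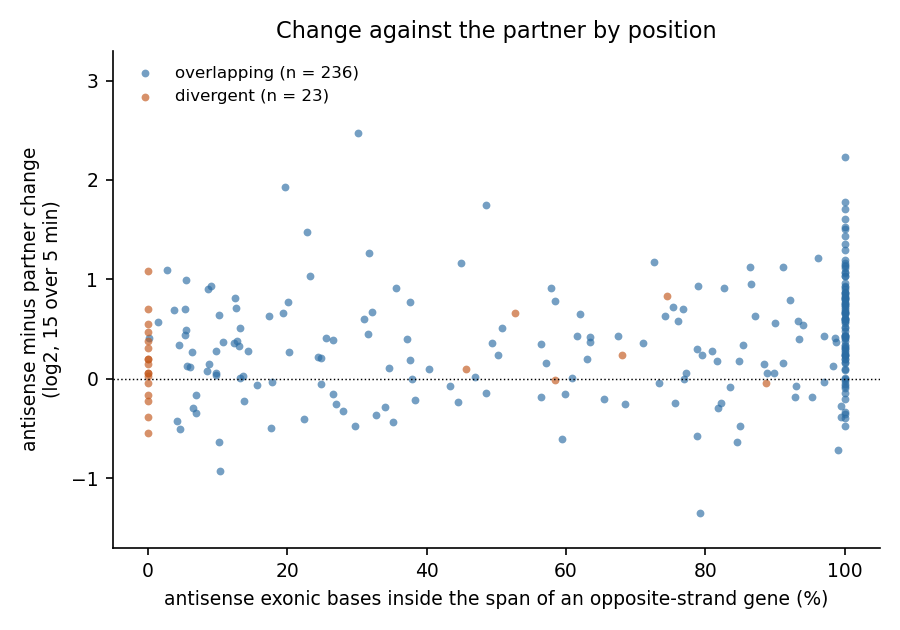
Change of the antisense gene minus that of its partner (log2, 15 min over 5 min) against the percent of antisense exonic bases that lie inside the span of any opposite-strand gene. Each point is 1 pair, 23 divergent and 236 overlapping, and the dotted line marks no difference. Terms above 1 and terms below 0 occur at low and at high percentages.

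Share calls of both genes rest on the same counts as the pair term, so they describe the called pairs and are no separate test. Of all 255 tested partners, 16.9% gained share and 32.5% lost it. Among the 86 pairs that gained, the antisense gene itself gained share in 57 and the partner lost share in 60, with both in 35 and neither in 4. Both genes gained share in 18 pairs and both lost share in 2. The antisense gene lost share while its partner gained in 1 pair, PAXIP1-AS1 with PAXIP1.

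The 5 largest called gains on the partner were in overlapping pairs. HMGN3-AS1 rose 6.23-fold on the fly scale while HMGN3, which encodes a nucleosome-binding protein, went from 6.24 and 12.6 to 9.41 and 11.3 (1.11-fold, not called), a term of 2.47 ± 0.306 (SE, adjusted p = 9.53e-14). CSNK1G2-AS1 went from 3.12 and 2.49 to 21.3 and 16.2 beside the casein kinase gene CSNK1G2 at 32.4 and 40.6, then 50.8 and 51.5 (term 2.23 ± 0.274, adjusted p = 6.56e-14). MORF4L2-AS1 had a term of 1.93 ± 0.306 (adjusted p = 1.35e-08) beside MORF4L2, a subunit gene of histone acetyltransferase complexes. In these pairs the antisense levels of the 2 label times did not overlap, while those of HMGN3 did.

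SMARCA5-AS1 lies inside SMARCA5, the gene of a chromatin remodelling ATPase, and shares 66.7% of its exonic bases with other exons. It went from 2.79 and 3.23 to 17.9 and 17.5 while SMARCA5 went from 98.8 and 124 to 187 and 193 (term 1.78 ± 0.268, adjusted p = 2.37e-09). MIS18A-AS1, beside a centromere factor gene, had a term of 1.75 ± 0.299 (adjusted p = 1.72e-07). These 5 antisense genes had only 17 to 33 reads per 5 min library, and CSNK1G2-AS1 and SMARCA5-AS1 lay wholly inside an opposite-strand span.

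In the 7 pairs that lost, the partner itself gained share, except for GABPB1, which was not called. ZNF337-AS1 went from 3.90 and 5.47 to 10.0 and 13.3 while the zinc finger gene ZNF337 went from 1.11 and 1.37 to 7.84 and 8.09 (6.36-fold). The term was -1.35 ± 0.427 (SE, adjusted p = 0.00882), and the call was lost when replicate 2 was dropped at 5 min (0.104) or replicate 1 at 15 min (0.12), and with no filter on low counts (0.062). SLC25A25-AS1 went from 12.7 and 14.7 to 42.0 and 35.9 while SLC25A25, a mitochondrial carrier gene, went from 33.1 and 38.6 to 191 and 197 (term -0.93 ± 0.186, adjusted p = 1.11e-05). AFAP1-AS1 rose 3.43-fold beside AFAP1 at 5.67-fold (term -0.72 ± 0.17, adjusted p = 0.000279). In each of these pairs both genes rose without overlap between label times.

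THAP7-AS1 rose 3.37-fold beside THAP7 at 4.99-fold (term -0.58, adjusted p = 0.0134). That call was lost without replicate 1 at 5 min (0.216) and without either library at 15 min (0.0861 and 0.101). ZEB2-AS1, beside the transcription factor gene ZEB2, had a term of -0.48 (0.00047). GABPB1-AS1, beside the gene of an ETS factor subunit, had one of -0.34 (0.0166), lost without replicate 2 at 5 min (0.142) or at 15 min (0.269) and with no filter on low counts (0.0546).

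**Figure D4:**
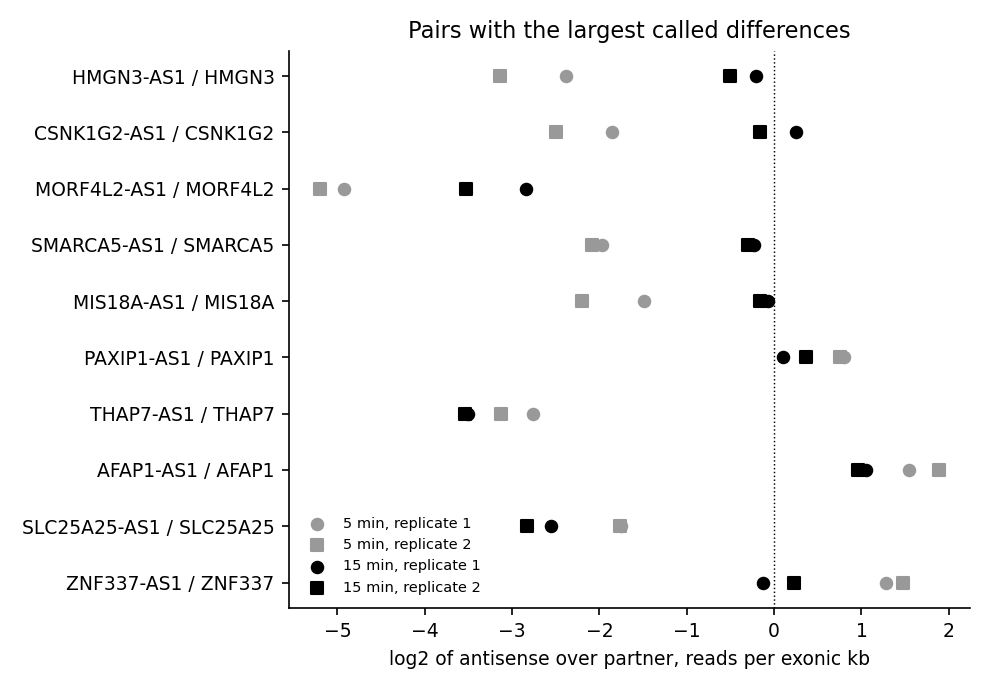
Log2 ratio of antisense to partner reads per exonic kb in each of the 4 libraries (grey 5 min, black 15 min, circles replicate 1, squares replicate 2) for the 5 largest called gains and the 5 largest called losses on the partner. The label times do not overlap in any of the 10 pairs shown, which were picked by a term fitted to these same counts. Over all 270 pairs, both 15 min ratios lay above both 5 min ratios in 147 and below them in 34.

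Divergent pairs were of several kinds. PAXIP1-AS1, whose start lies 364 bases from that of PAXIP1 (a DNA damage response gene), went from 27.9 and 34.0 to 75.9 and 82.9 while PAXIP1 went from 68.6 and 86.0 to 304 and 275. It was the 1 divergent pair in which the antisense gene lost (term -0.55 ± 0.145, adjusted p = 0.00125), a call missed without replicate 1 at 15 min (0.145). SCAMP1-AS1 went from 9.03 and 9.08 to 44.6 and 40.8 while SCAMP1, a secretory membrane gene, went from 19.1 and 23.5 to 45.8 and 47.9 (term 1.09 ± 0.21, adjusted p = 4.48e-06). UBA6-AS1 went from 11.1 and 12.7 to 39.2 and 40.8, a share change of 0.10 (adjusted p = 0.655), beside UBA6, a ubiquitin-activating enzyme gene, which rose 1.87-fold (term 0.84 ± 0.176, adjusted p = 3.11e-05). These last 2 gains stood without each library in turn. UBA6-AS1 had 74.5% of its exonic bases inside opposite-strand spans and SCAMP1-AS1 0%.

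UBAC2-AS1 (term 0.70, adjusted p = 0.0267), PAN3-AS1 (0.55, 0.0431) and STAM-AS1 (0.47, 0.0409) were also called, and each lost its call without replicate 2 at 5 min (0.159, 0.168 and 0.287), without either library at 15 min, and with no filter on low counts (0.0842, 0.119 and 0.109). UBAC2-AS1 and PAN3-AS1 lost it without replicate 1 at 5 min as well (0.0572 and 0.0975). The other 17 divergent pairs were not called. The folds of antisense gene and partner in 4 of them, 2 (PRKCQ-AS1 and RNF139-AS1) chosen after their values were seen, were 2.55 and 2.50 for PRKCQ-AS1 and PRKCQ, 3.01 and 3.12 for RAB30-AS1 and RAB30, 3.99 and 3.81 for RNF139-AS1 and RNF139, and 4.54 and 4.65 for FOXD2-AS1 and FOXD2, a forkhead factor gene. RNF139-AS1 and RNF139 both gained share, as did FOXD2-AS1 and FOXD2, although FOXD2-AS1 missed the threshold with DESeq2 (adjusted p = 0.0663). With terms of 0.06 for RNF139-AS1 and -0.04 ± 0.233 (SE) for FOXD2-AS1, the misses do not show equal change.

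Levels per length were most often below those of the partner. Per kb of merged exons, 86 of 270 antisense genes lay above their partner on average over the 4 libraries, 70 of them in all 4 libraries, and 154 lay below in all 4. The median log2 ratio was -0.48 in divergent pairs and -0.63 in overlapping pairs, so that the typical partner was 1.40- and 1.54-fold higher. These directions hold for exonic length, but their size depends on shared exons. Among antisense genes that share no exonic base with another gene, the medians were -0.07 and -0.16, near equal levels. With the whole gene span as length the medians were 1.62 and 0.12. Within the overlaps the median partner was 2.33-fold higher for head to head pairs and 1.26-fold higher for nested genes. The 45 head to head overlaps with starts within 1000 bases had the lowest median ratio of these groups, with the partner 3.05-fold higher.

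**Figure D5:**
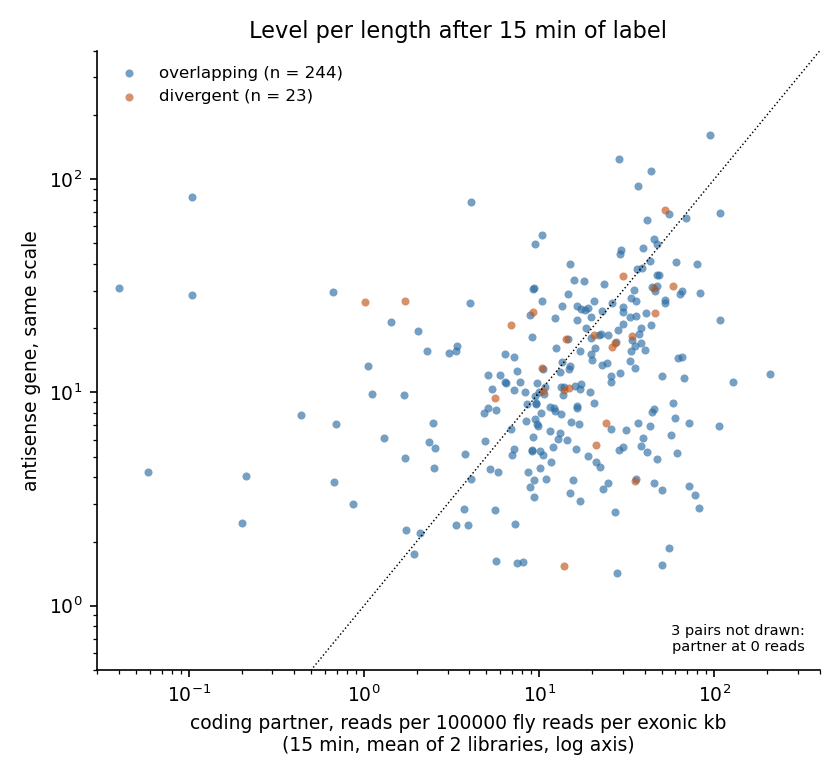
Level of each antisense gene against its coding partner after 15 min of label, in reads per 100000 fly reads per kb of merged exons (mean of 2 libraries, log axes), for 23 divergent and 244 overlapping pairs. The dotted line marks equal levels, and 3 pairs whose partner had 0 reads after 15 min are not drawn. A group of overlapping antisense genes on the left stands far above partners that were almost silent.

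In 23 pairs the partner had under 100 summed reads, all of them overlapping, while the antisense gene was active. TMEM132D-AS1 had 380 and 435 raw reads after 5 min and 512 and 449 after 15 min, and TMEM132D, a neural membrane protein gene that holds it, had 1 read in all. FGD5-AS1 had 424 to 566 reads per library beside FGD5 with 0 to 2. DLGAP1-AS2, with 787 to 1100 reads, and DLGAP1-AS1, with 156 to 201, lie inside DLGAP1, a synaptic scaffold gene with 2 to 7 reads. The named partners of these 4 antisense genes thus gave at most 7 reads in any library.

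Among divergent pairs, RAB30-AS1 stood 26.7-fold above RAB30 per exonic kb (log2 ratio 4.74 ± 0.17 SD, n = 4 libraries), although 88.6% of its exonic bases lie inside an opposite-strand span. The authors' deposited production rates give the other order, with RAB30-AS1 (0.000337) below RAB30 (0.000392). These rates state no scale, and how they treat gene length is not known, so the orders cannot be compared directly. ZNF674-AS1 stood 13.9-fold above ZNF674 (3.79 ± 0.214), FOXD2-AS1 3.07-fold above FOXD2 (1.62 ± 0.207) and SCAMP1-AS1 1.78-fold above SCAMP1 (0.83 ± 0.642). Of these 4 pairs only that of SCAMP1-AS1 had a called term, and the term of ZNF674-AS1 was 0.31 ± 0.331 (SE, adjusted p = 0.507).

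The 4 antisense genes picked for what is known of them differed in level against the partner. GATA2-AS1 crosses the start of GATA2, the haematopoietic stem cell factor gene, and had 14.4 and 19.4 fly-scaled reads after 5 min and 49.3 and 50.5 after 15 min. GATA2 had 123 and 157, then 476 and 481. Per exonic kb the antisense gene was at 0.219 of GATA2, and the term was -0.21 ± 0.156 (adjusted p = 0.318). TMPO-AS1 was at 0.16 of TMPO, a nuclear lamina gene (term 0.22 ± 0.16, adjusted p = 0.313). MCM3AP-AS1 was at 0.657 of MCM3AP, the gene of an mRNA export factor, and gained on it (term 0.70 ± 0.123, adjusted p = 4.21e-07). OIP5-AS1 was at 2.00 times OIP5, a centromere gene with 40 to 63 reads per library, and its term of 0.70 ± 0.24 (adjusted p = 0.0176) was lost without replicate 1 at 5 min (0.147) or either 15 min library (0.0985 and 0.109).

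The authors' deposited table of production rates states no scale and held 128 of the 278. It covered 87 of the 108 antisense genes with under 50% of exonic bases inside an opposite-strand span, 41 of the 170 others, and 3 of the 93 that lie wholly inside such a span. In the 103 pairs with both rates in the authors' deposited table, the antisense rate was the higher in 31 and the median log2 ratio was -0.80. It was -0.23 in 18 divergent pairs and -1.25 in 85 overlapping pairs. By the authors' deposited table PAXIP1-AS1 stood at 0.0721 and PAXIP1 at 0.0285, RAB30-AS1 at 0.000337 and RAB30 at 0.000392, and THAP7-AS1 at 0.00487 and THAP7 at 0.13.

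Other noncoding genes with systematic names are set here beside the 16.8% of all tested genes that gained share and the 21.3% that lost it. Of 32 tested divergent transcripts (ending DT) 4 gained share (12.5%) and 0 lost (median fly-scaled fold 3.48). Of 42 intronic transcripts (ending IT) 12 gained (28.6%) and 0 lost (4.02), and of 170 numbered LINC genes 30 gained (17.6%) and 6 lost (3.50). The 3 overlapping transcripts (ending OT) had a median of 4.32, and 2 gained. Genes of the nuclear exosome and of factors that end or degrade upstream antisense RNA had a median of 2.86-fold, near that of coding genes (2.93). All 24 rose on the fly scale, 2 gained share (EXOSC1 and EXOSC2, 8.33%) and 10 lost it (41.7%), against 14.7% and 33.5% of coding genes with at least 100 reads. Among these, MTREX, the helicase that feeds RNA to the exosome, lost 0.65 on the log2 scale (-0.65 ± 0.068 SE, adjusted p = 1.04e-19), and XRN2, the nuclease that follows transcription past its end, lost 0.54 (-0.54, 1.85e-09).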

How the data were processed

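TT-seq counts of 4 libraries of untreated K562 cells were used. The authors deposited raw counts of reads over human and over fly genes. They also deposited a synthesis rate for each gene, taken as a score since the file headers name no scale. The submitters' processing notes name STAR 2.7, featureCounts, Subread 2.0.1, bcl2fastq 2.17.1.14 and edgeR, with builds hg38 and dm6. The sources do not give what was counted, or whether by strand. GENCODE 29 gave symbols, types and exons for 56590 identifiers. Antisense genes and partners were matched by symbol. The members and lists were chosen with earlier results of these data known.

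Genes passing filterByExpr (minimum count 10, 17322 genes) were tested with edgeR 4.0.16 (robust quasi-likelihood, label time as the only term), with fly totals as library sizes or with TMM factors. SE were taken from the F statistic. Pairs were tested in a table of 1926 pairs with noncoding and coding counts as separate columns, library and role as terms, and role by label time tested. It held each tested noncoding gene overlapping, or starting within 5000 bases of, a tested opposite-strand coding gene. P-values were two-sided, Benjamini-Hochberg adjusted over the whole table at 0.05. Log2 level ratios used 0.5 added reads. Named genes were the 6 with most reads, the 5 largest and 5 smallest fly-scaled changes among members with at least 200 reads, the 5 largest called gains and losses on the partner, the 4 divergent and 4 overlapping pairs with the highest antisense level, and OIP5-AS1, GATA2-AS1, TMPO-AS1 and MCM3AP-AS1. One gene that this rule names is not reported here. Alternatives were DESeq2 1.42.0, other scalings, no filter, a replicate block and leaving out each library. The fits were tested on simulated data. Counting errors cover sampling of reads only.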

Additional observations from a re-analysis of the deposited data

How the results depend on the processing

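The rise of all 278 genes on the fly scale became 276 to 278 without 1 library and 277 with DESeq2, and its median log2 fold change was 1.83 to 2.05 without 1 library. Share gains (97) were 57 to 75 and losses (7) 5 to 10 without 1 library. DESeq2 gave 29 and 4, and the 29 were all among the 97. Members with under 50% of exonic bases in an opposite-strand span held 30 of the gains, and those with at least 50% held 2 of the losses. Pairs gained on their partner in 52 to 67 cases without 1 library. The share over all pairs was computed neither for the fits without 1 library nor for the set that follows. Among antisense genes that share no exonic base, 26 pairs gained and 1 lost. That set is much smaller, since 208 of the 278 members share exonic bases with another gene. Its counts therefore cannot be compared directly with those of all pairs. Losses numbered 4 to 7 without 1 library. The overlapping median term was 0.33 to 0.41 without 1 library, 0.64 without shared bases, and 0.27 or 0.43 by exons outside or inside opposite-strand spans. The divergent term was 0.11 to 0.19 without 1 library.

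The median level ratio depended on length and choice of pairs. It was 1.62 (divergent) and 0.12 (overlapping) per gene span, -0.0509 and -0.47 with at least 200 reads, -0.0702 and -0.16 without shared bases, and -0.0702 and -0.42 per unshared exonic kb. Overlapping pairs gave -1.01 and -0.52 with under and at least 50% in opposite spans. Rate ratios were -0.23 for divergent and -1.25 for overlapping pairs. Alternatives by unshared length and by opposite-strand span were chosen after seeing the data.

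The replicate differences at 5 min and at 15 min were nearly unrelated (correlation 0.05 over 17322 genes). This cannot show whether same-numbered libraries share a culture or batch. With the replicate block 100 of 278 antisense genes gained share (36.0%) and 8 lost it (2.88%), against 17.8% and 22.4% of all tested genes. In that setting 87 pairs gained and 7 lost, and the share over all pairs was not computed. Among named genes, sign changes were limited to values that were not called with all libraries. With total counts the share change was 0.0864 for DLGAP1-AS1, 0.0243 for GATA2-AS1, 0.00284 for OIP5-AS1 and 0.0452 for RAB30-AS1. Without 1 library it was -0.182 to 0.123 for DLGAP1-AS1, -0.180 to 0.0149 for GATA2-AS1, -0.0411 to 0.513 for HOXB-AS3, -0.0928 to 1.45 for HOXB-AS4, -0.00934 to 0.110 for LRRC75A-AS1, -0.0230 to 0.212 for THAP7-AS1, -0.0419 to 0.0738 for TMEM132D-AS1 and -0.341 to 0.123 for TMPO-AS1. The pair term without 1 library was -0.229 to 0.151 for FOXD2-AS1, -0.260 to 0.327 for PRKCQ-AS1, -0.257 to 0.143 for RAB30-AS1 and -0.0130 to 0.133 for RNF139-AS1. Members near 100 reads, about 25 per library, limit what could be called. Causes of these shifts were not tested.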
